A study of Mus musculus with 11 samples.

Results

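The expression of 10 genes of innate sensing was followed through 11 mouse lymphomas, namely the Toll-like receptor genes Tlr1, Tlr2, Tlr3, Tlr4, Tlr6, Tlr7, Tlr8 and Tlr9, the receptor homologue Cd180 and the adaptor Myd88. They were chosen by gene name among the non-control probes of a one-colour oligonucleotide array, which gave 13 probes for the 10 genes. Of the 10 genes, 8 had a probe that stood well above background on at least 3 arrays and were tested among 20181 genes. Tlr3 and Tlr8 did not pass and were not tested.

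The tumours were taken as lymph node tissue from mice of the Black 6 strain with the genotype c-myc-3'RR/p53+/-, which combines a c-myc transgene under the IgH 3' regulatory region with the loss of a single p53 allele. All 3 groups shared this genotype, and no normal lymph node was among the samples analysed. By the tumour type in the labels, 4 samples were plasma cell lymphomas, written PCL, 3 were mantle cell lymphomas, written MCL, and 4 were Burkitt lymphomas, written BL. The labels give no age or treatment. They also leave unsaid whether tumours of a group were from separate mice, so p-values reflect no more than the spread among these samples, part of which may be technical. Each lymphoma type was hybridised on a slide of its own, and type and slide cannot be told apart.

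Levels are given as log2 signal minus the 75th percentile of the same array, so that 0 is the level of that percentile, which lay between 1072 and 1637 intensity units. Probes differ in how strongly they bind, so levels are compared between tumours and not between genes. All 8 B cell markers examined were measured, and the sum of their linear levels relative to the percentile lay between 209.9 and 302.7 over the 11 tumours. Most of this sum came from Cd79b and Blnk, and single markers differed. Ms4a1 was at 2.87 to 3.60 in PCL2, PCL3 and PCL4 and at 4.41 to 5.53 in PCL1, MCL and BL. The sum of 7 plasma cell markers was 33.3 in PCL1 and 61.2 to 65.2 in the other 3 PCL, 28.2 to 42.4 in MCL and 30.8 to 37.3 in BL. By this sum PCL1 lay within the range of MCL and BL, while single markers differed. Jchain, at 0.47 in PCL1, lay above every MCL and BL value, and Prdm1, at -0.69, was higher in PCL1 than in any other tumour. Other markers, apart from Tnfrsf17, went the other way in PCL1. Sdc1, at -3.26, lay below the other PCL, MCL1 and BL2. Irf4, at 1.76, was below every tumour but BL1, and Xbp1, at 2.00, was below every MCL. Mzb1, at 4.57, lay within the BL range. Tnfrsf17, at -4.87 in PCL1, lay above every tumour but MCL1, with a probe well above background on 4 of the 11 arrays. Macrophage markers set PCL1 apart from its group. Of 16 macrophage markers, 14 were measured, with sums of 2.48 in PCL1 and 12.6 to 29.1 in the other PCL, 1.90 to 5.12 in MCL and 2.93 to 8.20 in BL. Cd163 and Vsig4 were well above background on 1 array each and did not pass the filter. In whole tissue, fewer cells of a type and less RNA per cell cannot be told apart.

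Toll-like receptors bind conserved microbial molecules at the cell surface or in endosomes. Nearly all of them signal through MYD88, which recruits IRAK kinases and TRAF6 and leads to activation of NF-kB and interferon regulatory factors. B cells carry several of these receptors, and TLR9, which binds CpG-rich DNA, and TLR7, which binds single-stranded RNA, drive B cell proliferation and antibody secretion when engaged.

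The probes that carry the results below are shown by the first 30 of their 60 bases, in lower case as stored with the array data, because each value reports binding to that sequence rather than to the whole transcript. The Tlr9 probe A_51_P432563 lies at chr9:106128979-106129038 on the plus strand of build mm9 and gave the one difference between types that was called. The 3 Tlr7 probes all lie on the minus strand of chromosome X, and they are shown together because they gave different values. Probe A_55_P2050932 at chrX:163742863-163742922 stood for the gene, and A_55_P2129047 at chrX:163743146-163743205 and A_55_P2129046 at chrX:163747214-163747273 are the others. The Cd180 probe A_52_P258617 at chr13:103496269-103496328, plus strand, and the Myd88 probe A_52_P282762 at chr9:119245322-119245381, minus strand, are given as the receptor with the widest separation of PCL from MCL and as the shared adaptor.
Tlr9 A_51_P432563: ctggttcccgagttgctctgcctgccttgc
Tlr7 A_55_P2050932: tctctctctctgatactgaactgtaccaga
Tlr7 A_55_P2129047: cataaatgaaggtctgaatttttcctaaca
Tlr7 A_55_P2129046: atgtaatgctgcttctgtatcttaaaaact
Cd180 A_52_P258617: gcacttgctcaaacatttactttttagaat
Myd88 A_52_P282762: ggtttgcatcttcttattcctttcacgttc

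The other probes lay at chr5:65316115-65316174 for Tlr1 and chr5:65344365-65344424 for Tlr6, both on the minus strand of the same chromosome, at chr3:83640344-83640403 on the minus strand for Tlr2 and at chr4:66503470-66503529 on the plus strand for Tlr4. The Tlr3 probe lay at chr8:46481729-46481788 and the 2 Tlr8 probes at chrX:163680626-163680685 and chrX:163683356-163683415, all on the minus strand. Coordinates are those of the array files. Whether a probe falls in coding sequence or in a UTR was not analysed here.

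Across the 3 lymphoma types, Tlr9 was higher in MCL than in BL, and no other difference of a receptor or of Myd88 passed the test. Tlr9 and Cd180 had values in PCL that did not overlap those in MCL, at adjusted p-values above the threshold. Between PCL and BL the arrays of every tested gene overlapped. The levels of all 8 tested genes are plotted by tumour.

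**Figure D1:**
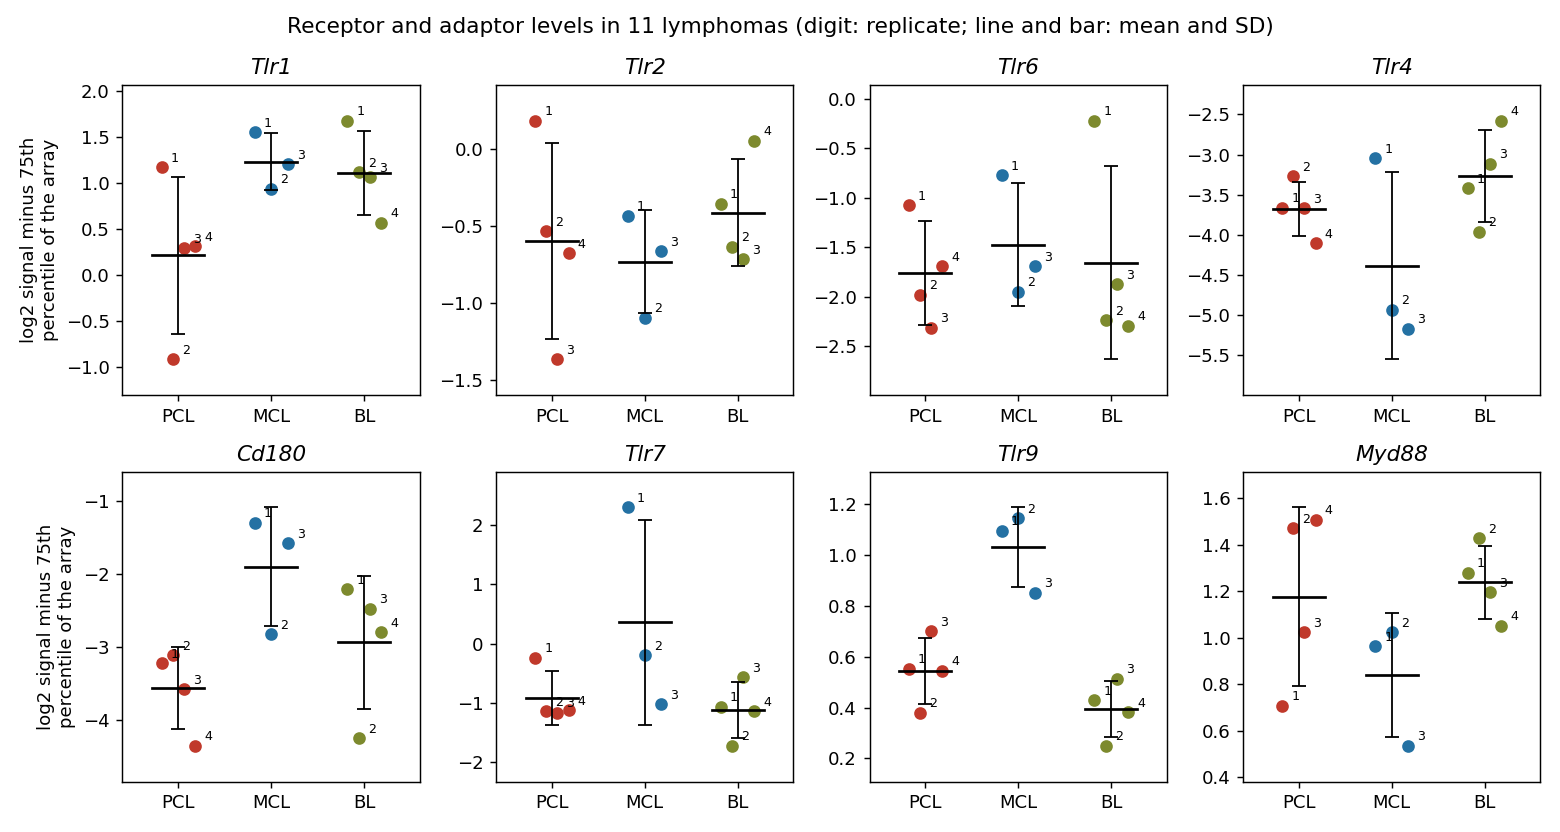
Level of each tested gene in the 11 lymphomas (y axis, log2 signal minus the 75th percentile of the array, with its own scale per gene) by lymphoma type (x axis). Each point is a tumour with its replicate number, and the line and bar are the mean and SD of 4 PCL, 3 MCL and 4 BL. The 3 MCL values of Tlr9 lie above all PCL and BL values, and 1 tumour, MCL1, carries the high mean of Tlr7 in MCL.

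In limma's moderated F test for any difference among the types, 0 of the 8 tested genes passed an adjusted p of 0.05, at which 8.43% of the 20181 genes were called, and 2, Tlr9 and Cd180, had an unadjusted p under 0.05, as had 26.6% of all genes. For PCL against MCL, 0 of 8 were called with a background of 6.94%, and 3 of 8 (Tlr1, Tlr9 and Cd180) had an unadjusted p under 0.05, with a background of 24.4%. For PCL against BL, 0 of 8 were called with a background of 0.659%, and 0 of 8 had an unadjusted p under 0.05, which 17.6% of all genes had. For MCL against BL, 1 of 8 was called, Tlr9, with a background of 6.64%, and 2 of 8 (Tlr7 and Tlr9) had an unadjusted p under 0.05, with a background of 18.5%. Some of these shares lie above the background and others below it, and with 8 genes a single gene shifts a share widely. No share was tested against its background.

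The median difference of the 8 genes was -0.39 log2 units between PCL and MCL, -0.15 between PCL and BL and 0.15 between MCL and BL. Over all genes the medians were -0.03, 0.09 and 0.06 in the same order. PCL and MCL arrays did not overlap for 2 of the 8 genes, against 22.9% of all genes, and MCL and BL arrays did not overlap for 2 of 8, against 17.7%. For PCL and BL the count was 0 of 8, against 11% of all genes. The 3 comparisons share their samples in pairs, so their values are given side by side and not as separate evidence.

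**Figure D2:**
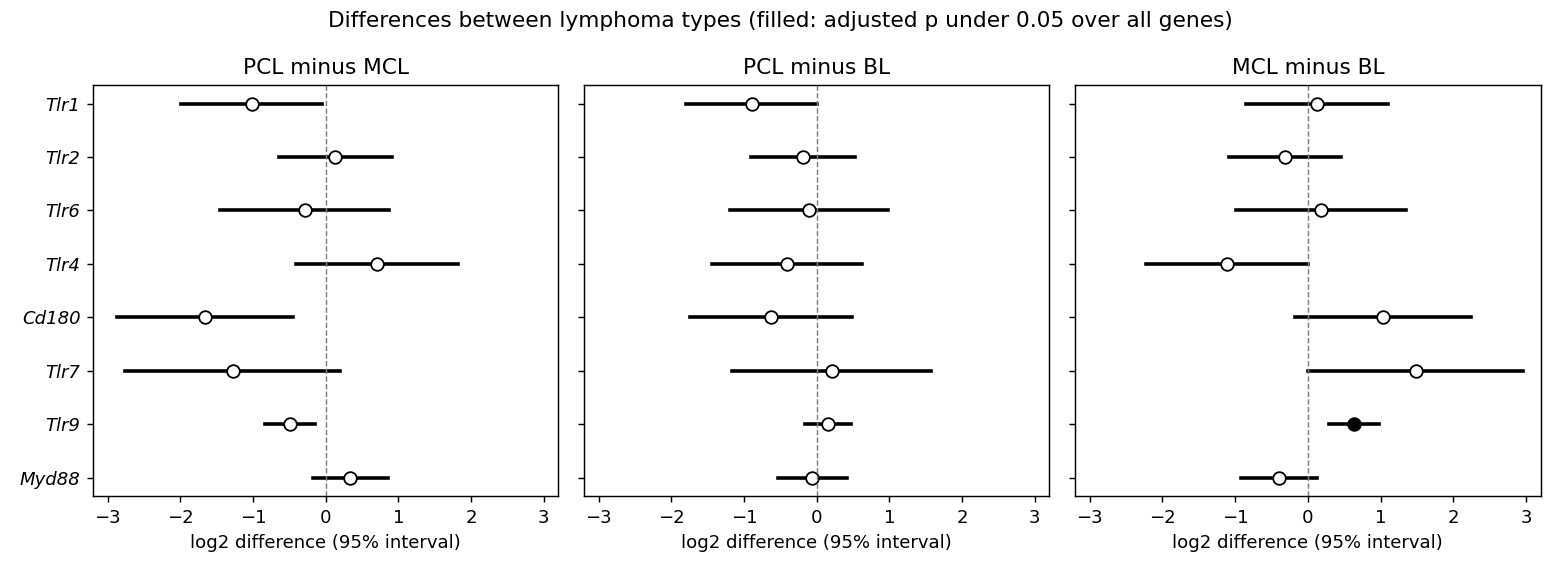
Difference in level between lymphoma types (x axis, log2 units, first-named type minus second) for the 8 tested genes (y axis) in each of the 3 comparisons. Points are estimates from the fit across 11 arrays, lines are 95% intervals, and the filled point, Tlr9 in MCL minus BL at 0.64, is the one with an adjusted p under 0.05.

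Among the receptors of the cell surface, TLR1 pairs with TLR2 to sense triacylated lipopeptides. The levels of Tlr1 were 1.17, -0.92, 0.29 and 0.31 in PCL, 1.55, 0.93 and 1.20 in MCL and 1.67, 1.12, 1.06 and 0.56 in BL. Of the PCL, 3 lay below every MCL and BL value, and PCL1 lay among them. The difference was -1.02 ± 0.44 (SE) for PCL against MCL (limma adjusted p = 0.186) and -0.89 ± 0.40 for PCL against BL (adjusted p = 0.288). MCL and BL differed by 0.12 ± 0.44, with a 95% interval of -0.85 to 1.10. In order of mean level MCL stood at 1.23 ± 0.31, BL at 1.10 ± 0.45 and PCL at 0.21 ± 0.86 (SD, n = 3, 4 and 4), and no neighbours in that order differed by a called amount.

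Tlr2, the partner of TLR1 and TLR6 in binding bacterial lipopeptides, was measured on 10 spots per array. It had levels of 0.18, -0.54, -1.36 and -0.68 in PCL, -0.44, -1.10 and -0.66 in MCL and -0.36, -0.64, -0.72 and 0.05 in BL. The 3 types overlapped throughout. The differences were 0.13 ± 0.35 (SE) for PCL against MCL, -0.19 ± 0.32 for PCL against BL and -0.32 ± 0.35 for MCL against BL, with limma adjusted p-values of 0.850, 0.816 and 0.704. The 95% intervals were -0.64 to 0.91, -0.90 to 0.53 and -1.09 to 0.45.

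Tlr6, the other partner of TLR2 and a sensor of diacylated lipopeptides, had levels of -1.07, -1.98, -2.31 and -1.69 in PCL, -0.77, -1.95 and -1.69 in MCL and -0.22, -2.24, -1.87 and -2.29 in BL. In each type the tumour on the first array position of its slide was the highest, and the remaining tumours lay between -2.31 and -1.69. Types accounted for 3.18% of the squared deviation of Tlr6 over the 11 arrays, against a median of 31.4% over all genes. The differences between types were -0.29 ± 0.52 (SE), -0.11 ± 0.49 and 0.18 ± 0.52 for PCL against MCL, PCL against BL and MCL against BL, with limma adjusted p-values of 0.776, 0.939 and 0.897.

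Tlr4 encodes the receptor of bacterial lipopolysaccharide. Its levels were -3.66, -3.27, -3.67 and -4.11 in PCL, -3.04, -4.93 and -5.17 in MCL and -3.42, -3.96, -3.12 and -2.58 in BL. MCL2 and MCL3 were the 2 lowest tumours, while MCL1 was second only to BL4. MCL minus BL was -1.11 ± 0.50 (SE), with a limma adjusted p of 0.273, and without MCL1 it was -1.78 ± 0.37 with an adjusted p of 0.0388. PCL differed from MCL by 0.70 ± 0.50 (adjusted p = 0.421), and by 1.37 without MCL1 (adjusted p = 0.0747), and from BL by -0.41 ± 0.47 (adjusted p = 0.697). Macrophages also express Tlr4, and the macrophage markers, as the median of their centred log2 levels, stood at 0.29 in MCL1 and at -1.82 and -1.43 in MCL2 and MCL3. In BL these medians were -0.65 to -0.03. In PCL they were -0.97 in PCL1 and 1.74 to 2.68 in the others, with Tlr4 at -3.66 in PCL1 and -4.11 to -3.27 in the others. The part of macrophages in the Tlr4 values was not tested.

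Cd180, a B cell surface receptor with a Toll-like ectodomain that is bound by the secreted protein LY86, had levels of -3.22, -3.11, -3.58 and -4.36 in PCL, -1.30, -2.83 and -1.58 in MCL and -2.21, -4.26, -2.48 and -2.80 in BL. Every MCL value lay above every PCL value, and the BL values overlapped both. The difference of PCL minus MCL was -1.66 ± 0.54 (SE), so that the PCL mean was 0.316 times the MCL mean, with a 95% interval of -2.87 to -0.46 and a limma adjusted p of 0.0946. PCL differed from BL by -0.63 ± 0.50 (adjusted p = 0.554) and MCL from BL by 1.03 ± 0.54 (adjusted p = 0.365). With the authors' value table the PCL minus MCL difference was -1.27 (adjusted p = 0.0492), with array weights it was -1.88 (adjusted p = 0.0290), and with normexp background correction it was -0.88 and not called.

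Ly86 itself, whose product binds CD180, had levels of 4.44, 4.14, 4.58 and 4.35 in PCL, 5.94, 4.93 and 4.51 in MCL and 5.01, 3.66, 4.59 and 4.87 in BL. The difference of PCL and MCL was -0.75 ± 0.38 (SE), with a limma adjusted p of 0.267. As for Cd180, the highest of the 11 values was that of MCL1 and the lowest of the BL values that of BL2.

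Among the receptors of endosomes, Tlr9 was read by 1 probe, the sequence of which is given above. Its levels were 0.55, 0.38, 0.70 and 0.55 in PCL, 1.10, 1.14 and 0.85 in MCL and 0.43, 0.25, 0.51 and 0.38 in BL. Every MCL tumour lay above every PCL and every BL tumour, and PCL and BL overlapped. In signal before scaling, MCL had 3155, 2369 and 2861 intensity units and BL had 1655, 1742, 1715 and 1890, and these ranges did not overlap either.

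Tlr9 was 1.56-fold higher in MCL than in BL, a log2 difference of 0.64 ± 0.15 (SE, n = 3 and 4) with a 95% interval of 0.29 to 0.98 and a limma adjusted p of 0.0366. The direction was the same in all 21 other settings tried, with values from 0.57 to 0.73, and the call was made in 9 of them, with adjusted p-values from 0.0308 to 0.289. It was lost when any one of PCL2, PCL3, PCL4, MCL1, MCL2, BL1, BL2 or BL4 was left out. PCL minus MCL was -0.49 ± 0.15 (adjusted p = 0.0870), and PCL minus BL was 0.15 ± 0.14 (adjusted p = 0.626), with an interval of -0.17 to 0.47. In order of mean, MCL stood at 1.03 ± 0.16, PCL at 0.54 ± 0.13 and BL at 0.39 ± 0.11 (SD), and neither pair of neighbours differed by a called amount.

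The types accounted for 84.3% of the squared deviation of Tlr9, which had the smallest range over arrays of the 8 tested genes, 0.90 log2 units. Calls of higher signal in MCL than in BL were common on these slides. Over all genes 6.45% were called higher in MCL and 0.198% lower, and among the 8045 genes with a mean level above 0, as Tlr9 has, 2.08% were called higher and 0.224% lower. With normexp background correction 59 genes were called higher and 6 lower over all genes.

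Markers of other cell types were set beside these values. Of 8 dendritic cell markers 5 were measured, and Xcr1, Clec9a and Cd209a were above background on 0 arrays. The medians of the centred log2 levels of this list were 0.09 to 0.44 in PCL, 0.05 to 0.34 in MCL and -0.22 to 0.08 in BL. The summed linear levels were 74.6 to 98.8 in PCL, 81.6 to 101.5 in MCL and 71.1 to 87.6 in BL. Most of each sum came from Siglech alone, at log2 levels of 6.13 to 6.65, so the sum says little of the other markers. By the dendritic cell medians, MCL1 and MCL2, at 0.34 and 0.29, lay above every BL, and MCL3, at 0.05, lay below BL3 at 0.08. Of 7 T cell markers 6 were measured, and Trat1 was above background on 0 arrays. The summed T cell levels were 4.18 to 7.67 in PCL, 8.67 to 17.1 in MCL and 5.20 to 13.1 in BL. Most of each sum came from Lck and Cd4, so this sum also says little of the other markers. By the T cell medians MCL1, at 1.07, was the highest tumour. MCL2 and MCL3, both at 0.05, lay below PCL1 at 0.11, BL1 at 0.61 and BL3 at 0.81. They lay above the other PCL and BL. The part of these cells in the Tlr9 values was not tested.

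Tlr7 was measured by 3 probes that did not behave alike. The probe that stood for the gene, A_55_P2050932, had levels of -0.24, -1.15, -1.17 and -1.13 in PCL, 2.30, -0.20 and -1.02 in MCL and -1.06, -1.73, -0.57 and -1.14 in BL. MCL1 was the highest tumour, and MCL3 lay within the range of both other types. MCL minus BL was 1.48 ± 0.66 (SE), with a limma adjusted p of 0.268, and without MCL1 it was 0.52 ± 0.40. PCL minus MCL was -1.28 ± 0.66 (adjusted p = 0.270), and without MCL1 it was -0.31. PCL minus BL was 0.21 ± 0.61 (adjusted p = 0.907).

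The second Tlr7 probe, A_55_P2129047, was well above background on 10 of 11 arrays. It had levels of -1.18, -3.39, -3.89 and -3.44 in PCL, 1.96, -5.59 and -4.32 in MCL and -3.40, -4.71, -2.24 and -2.12 in BL. MCL1 was again the highest tumour and PCL1 the second highest, while MCL2 was the lowest, although it was the second highest with the first probe. The differences were -0.33 ± 1.56 (SE) for PCL against MCL, 0.14 ± 1.44 for PCL against BL and 0.47 ± 1.56 for MCL against BL. The third probe, A_55_P2129046, was above background on 0 arrays, with values of -8.63 to -6.03 that have no order.

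**Figure D3:**
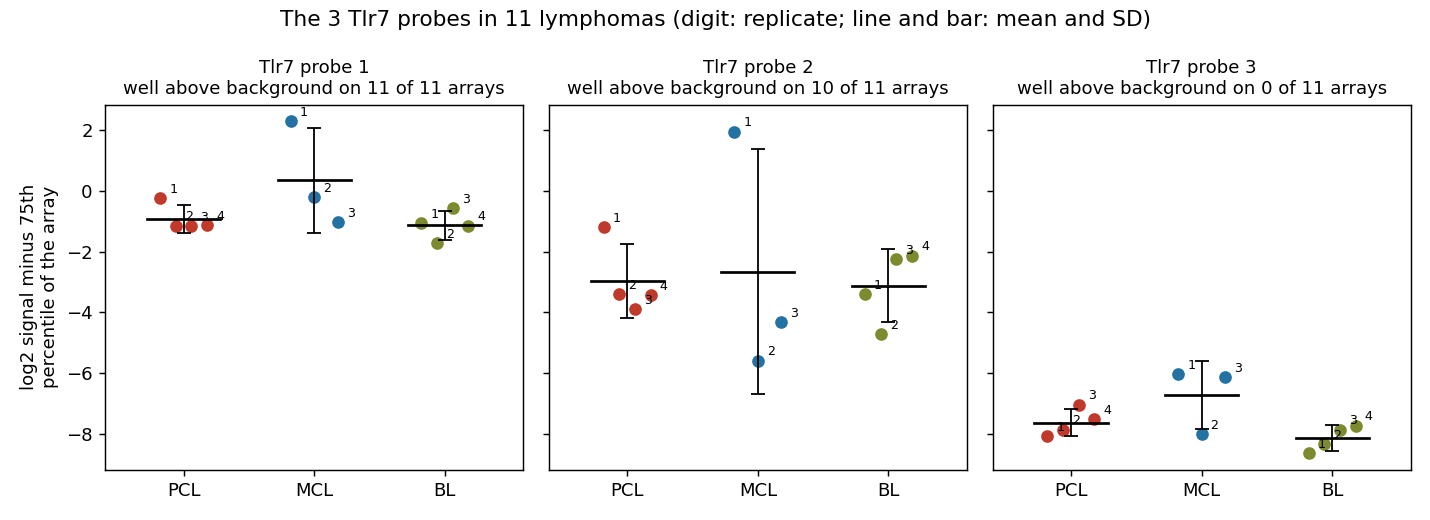
Levels of the 3 Tlr7 probes in the 11 lymphomas (y axis, log2 signal minus the 75th percentile of the array, one scale for all panels) by lymphoma type (x axis). Points are tumours with their replicate number, and lines and bars are means and SD. MCL1 is the highest tumour with the first and the second probe, at 2.30 and 1.96, and the third probe is not above background on any array.

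MCL1 also had the highest level of Irf7, an interferon regulatory factor that acts downstream of TLR7 and TLR9, at 1.02. The other levels of Irf7 were -5.21 to -4.51 in PCL, -4.32 and -5.60 in MCL2 and MCL3, and -5.50 to -3.91 in BL. No comparison of Irf7 was called, and PCL minus MCL was -1.97 ± 1.25 (SE) with a limma adjusted p of 0.367. T cell markers were highest in MCL1 as well, with a median centred level of 1.07 against 0.05 in both other MCL. The macrophage median was 0.29 in MCL1 against -1.82 and -1.43 in MCL2 and MCL3. The plasma cell median was 0.50 against -0.91 and -0.36. In both of these lists PCL2, PCL3 and PCL4 were higher than MCL1. The part of any of these cells was not tested.

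Tlr3, a receptor of double-stranded RNA, was well above background on 0 of 11 arrays, with 2.83 to 7.84 intensity units. Of the probes of Tlr8, a receptor of single-stranded RNA that neighbours Tlr7 on chromosome X, one was well above background on BL3 alone, at 27.9 intensity units, and the other on 0 arrays. No ratio between types is given for these genes.

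Myd88, the adaptor that links these receptors to IRAK kinases, was measured on 10 spots per array. Its levels were 0.71, 1.47, 1.02 and 1.51 in PCL, 0.96, 1.02 and 0.53 in MCL and 1.28, 1.43, 1.20 and 1.05 in BL. The MCL values all lay below the BL values, by a margin that between MCL2 and BL4 was small, and PCL overlapped both. MCL minus BL was -0.40 ± 0.23 (SE) with a 95% interval of -0.92 to 0.12 (limma adjusted p = 0.424). PCL minus MCL was 0.34 ± 0.23 (adjusted p = 0.406), and PCL minus BL was -0.06 ± 0.21 (adjusted p = 0.922). The whole range of Myd88 over the 11 tumours was 0.97 log2 units, against a median range of 1.57 over all genes.

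The 8 genes did not share one pattern over the tumours. As a description over the 11 arrays, which share slides and scaling, the highest Pearson correlation among them was 0.70 between Tlr7 and Tlr9, followed by 0.61 between Tlr7 and Cd180 and 0.58 between Tlr1 and Tlr6. Myd88 ran against several receptors, with -0.58 for Cd180 and -0.54 for Tlr9. Tlr7 and Tlr9 both had their highest mean in MCL, and the top tumour was MCL1 for Tlr7 and MCL2 for Tlr9. Tlr7 stands here for the probe A_55_P2050932 alone. With the probe A_55_P2129047, MCL2 was the lowest tumour, at -5.59, so the correlations of Tlr7 depend on the probe.

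**Figure D4:**
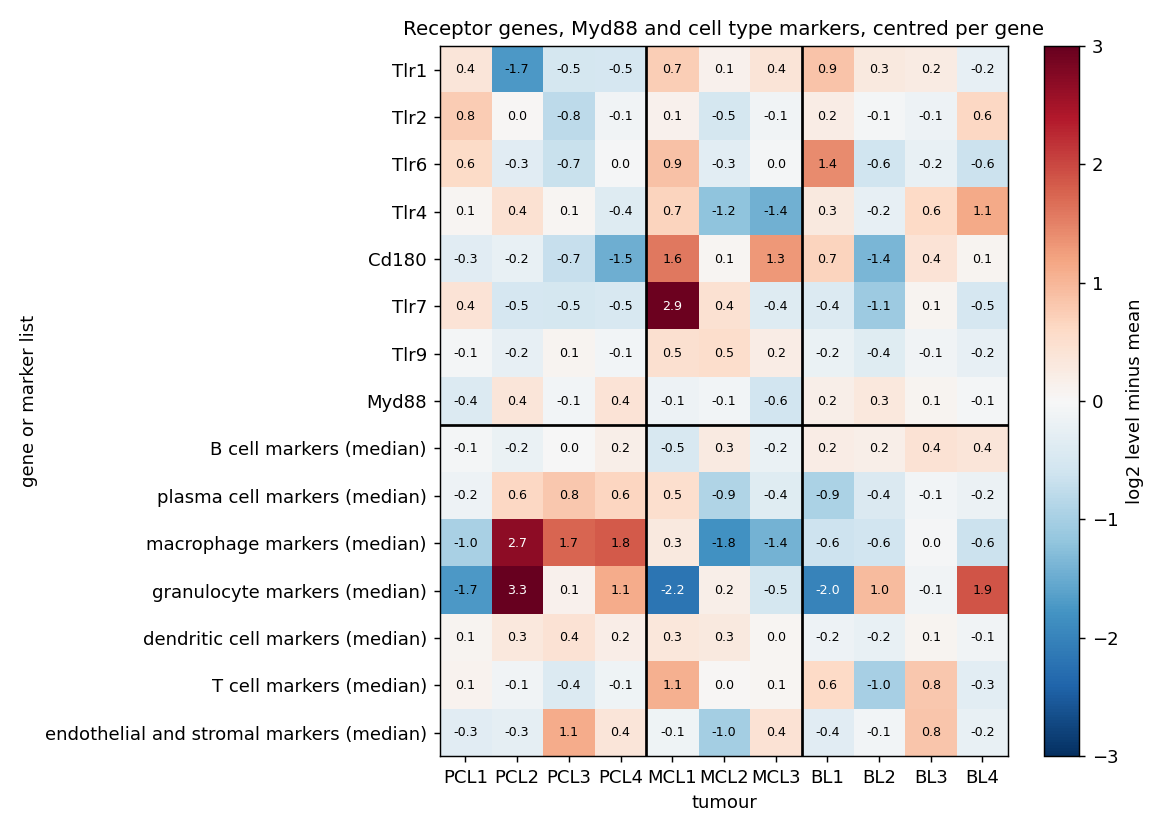
Levels of the 8 tested genes (upper rows) and medians of cell type marker lists (lower rows) in the 11 tumours (columns), each gene centred on its mean, as log2 units in colour and digits. MCL1 stands out for Tlr7 at 2.9 and Cd180 at 1.6, and the macrophage row separates PCL1 at -1.0 from the other PCL at 1.7 to 2.7.

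The rest of the pathway was taken as a list of 81 genes of Toll-like receptor biology, of which 70 were tested. In the F test 7 of the 70 were called, with a background of 8.43%, namely Hsp90b1, Map3k7, Rel, Irf3, Nfkbie, Atf3 and Nfkbid. For PCL against MCL 5 of 70 were called, with a background of 6.94%, of which 2 were higher in PCL (2.13% of all genes) and 3 were lower (4.82%). For PCL against BL 0 of 70 were called in limma's test, against 0.659% of all genes, and 16 of 70 had an unadjusted p under 0.05, against 17.6% of all genes. For MCL against BL 1 of 70 was called, with a background of 6.64%. The median differences were 0.13, -0.07 and -0.16 log2 units for PCL against MCL, PCL against BL and MCL against BL. The 11 genes not tested were Tlr5, Tlr11, Lbp, Sarm1, Peli2, Il1rl1, Il1r1, Il18rap, Il6, Il12b and Ptgs2.

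Of the 9 transcription factors 1, Rel, was called lower in PCL than in MCL, with a probe that was mostly not above background in PCL. Rel, an NF-kB subunit prominent in activated B cells, had levels of -4.20, -5.92, -5.44 and -6.16 in PCL, -3.07, -1.58 and -3.32 in MCL and -4.45, -4.34, -4.05 and -4.02 in BL. MCL lay above all other tumours. The probe was well above background on 1 of 4 PCL arrays and on all MCL and BL arrays, so the size of a difference from PCL depends on how background was treated. PCL minus MCL was -2.78 ± 0.51 (SE), with a limma adjusted p of 0.0160, and with normexp background correction it was -1.10 and not called. The call was kept in 16 of 20 other settings and lost without PCL2 or PCL4, with adjusted p-values of up to 0.337. For PCL against BL, 0 of the 9 factors were higher in PCL, 6 had an unadjusted p under 0.05 and 0 were called. Over all genes 11848 of 20181 were higher in PCL than in BL by estimate, 17.6% had an unadjusted p under 0.05 and 0.659% were called.

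Irf3, which acts downstream of TLR3 and TLR4, was called in the F test (adjusted p = 0.0383). Its levels were 3.23, 2.79, 3.24 and 2.84 in PCL, 3.56, 3.71 and 3.60 in MCL and 3.50, 4.26, 4.03 and 3.98 in BL. All PCL lay below all MCL and BL, and no single comparison of Irf3 was called, the nearest being PCL minus BL at -0.92 ± 0.20 (SE, limma adjusted p = 0.0621). The F call was kept in 7 of 21 other settings and lost without any array but PCL1 and BL1. Irf8, a regulator of B cell and myeloid development, had a PCL minus BL difference of -1.23 ± 0.34 (adjusted p = 0.113).

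Among 10 tested inhibitors of the pathway, Nfkbie was lower and Atf3 higher in PCL than in MCL. Nfkbie, an inhibitor that holds NF-kB in the cytoplasm, had levels of 1.47, 1.28, 1.30 and 1.41 in PCL, 3.17, 2.63 and 3.33 in MCL and 2.04, 1.99, 3.26 and 2.58 in BL. PCL lay below all other tumours, with a PCL minus MCL difference of -1.68 ± 0.31 (SE, limma adjusted p = 0.0160), a level in PCL 0.313 times that in MCL. The call was kept in 18 of 21 other settings and lost without PCL2, PCL4 or MCL3, with adjusted p-values of up to 0.0547. Atf3, a stress-induced repressor of cytokine genes, had levels of 2.63, 2.83, 3.44 and 3.29 in PCL, 0.73, 0.73 and -2.36 in MCL and -2.75, 0.60, -0.49 and -1.13 in BL. PCL lay above all other tumours, with a PCL minus MCL difference of 3.35 ± 0.87 (adjusted p = 0.0485) and a PCL minus BL difference of 3.99 ± 0.80 that was not called (adjusted p = 0.0583). The Atf3 call was kept in 10 of 21 settings and lost without any one of PCL2, PCL3, PCL4, the 3 MCL, BL3 and BL4, with adjusted p-values from 0.0054 to 0.120. Irak3, a negative regulator of IRAK signalling found mainly in monocytes and macrophages, differed by 2.55 ± 1.14 between PCL and MCL (adjusted p = 0.201).

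Of 13 tested response genes, Nfkbid was the one called. Nfkbid, an atypical nuclear NF-kB inhibitor induced in activated B cells, had levels of 3.27, 1.98, 2.47 and 1.82 in PCL, 4.03, 3.96 and 3.68 in MCL and 3.35, 4.34, 4.02 and 3.49 in BL. Every PCL value lay below every MCL and BL value, with a PCL minus MCL difference of -1.50 ± 0.36 (SE, limma adjusted p = 0.0384). This call was kept in 11 of 21 settings and lost without any one of PCL2, PCL3, PCL4, the 3 MCL and BL3, with adjusted p-values from 0.0048 to 0.116. The cytokine gene Il1b was well above background on 3 of 4 PCL arrays and 0 of 3 MCL arrays. Its mean in PCL was 2.82-fold above a ceiling for MCL, and the difference was not called (limma adjusted p = 0.126). The ceiling is the higher, per MCL array, of the probe's own signal and the lowest signal of any probe well above background. The PCL mean takes in the array on which the probe was not well above background, so 2.82 is no strict lower bound. The activation marker Cd69 differed by -1.53 ± 0.74 between MCL and BL (adjusted p = 0.318).

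Of 9 tested co-receptors, chaperones and trafficking factors, Cd14 was called for PCL against MCL and Hsp90b1 in the F test. Cd14, which hands lipopolysaccharide to TLR4 and is typical of myeloid cells, had levels of -3.86, -1.34, -2.60 and -1.99 in PCL, -4.74, -4.78 and -3.83 in MCL and -4.20, -3.41, -3.35 and -3.55 in BL. PCL1 lay close to MCL3, and the other PCL lay above all MCL and BL. The difference of PCL and MCL was 2.00 ± 0.53 (SE), with a limma adjusted p of 0.04997, and the call was kept in 3 of 21 other settings, being lost without any array but PCL1. The macrophage markers had median centred levels of -0.97 in PCL1 and 1.74 to 2.68 in the other PCL, and of -0.65 to -0.03 in BL. In MCL1, MCL2 and MCL3 these medians were 0.29, -1.82 and -1.43. Within MCL the order differed from that of Cd14, which was highest in MCL3. The part of macrophages in the Cd14 difference was not tested. Cd36, a scavenger receptor that assists TLR2, was well above background on 2 of 3 MCL arrays and on all others, and MCL minus BL was -1.92 ± 1.20 (adjusted p = 0.465), with the lowest value, -6.07, in MCL3.

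Hsp90b1, the endoplasmic reticulum chaperone gp96 that folds most Toll-like receptors, had levels of 4.56, 5.23, 5.63 and 5.09 in PCL, 4.41, 4.45 and 4.39 in MCL and 3.56, 4.35, 4.10 and 4.07 in BL. All PCL lay above all MCL and BL, with a limma adjusted p of 0.0444 in the F test. PCL minus BL was 1.11 ± 0.24 (SE, adjusted p = 0.0675) and PCL minus MCL 0.71 ± 0.26 (adjusted p = 0.132), neither of them called. The F call was kept in 8 of 21 other settings and lost without any array but PCL1. The plasma cell markers, whose products include secretory pathway factors, had median centred levels of -0.16 in PCL1 and 0.62 to 0.82 in the other PCL, and their part was not tested.

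Of 17 tested kinases and ubiquitin ligases, Map3k7, which encodes the kinase TAK1 downstream of TRAF6, was lower in MCL than in BL. Its levels were 1.08, 1.36 and 1.28 in MCL and 2.12, 1.80, 1.92 and 1.89 in BL, and with this probe PCL lay between them at 1.59 to 1.72. MCL minus BL was -0.69 ± 0.15 (SE, limma adjusted p = 0.0223), and the other Map3k7 probes gave -0.42 and -0.61, neither of which was called. The probes disagreed on PCL. A_52_P175952 gave 0.22 ± 0.13 for PCL minus BL and 0.64 ± 0.14 for PCL minus MCL, the second of them called (adjusted p = 0.0300 over all probes). The MCL minus BL call of Map3k7 was kept in 14 of 21 other settings, with adjusted p-values of up to 0.361, and lost without MCL1 or MCL3. Irak2, a kinase of the MYD88 complex, differed by -0.80 ± 0.24 between PCL and MCL (adjusted p = 0.0771), and the ubiquitin ligase gene Peli1 by 0.87 ± 0.37 (adjusted p = 0.188).

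**Figure D5:**
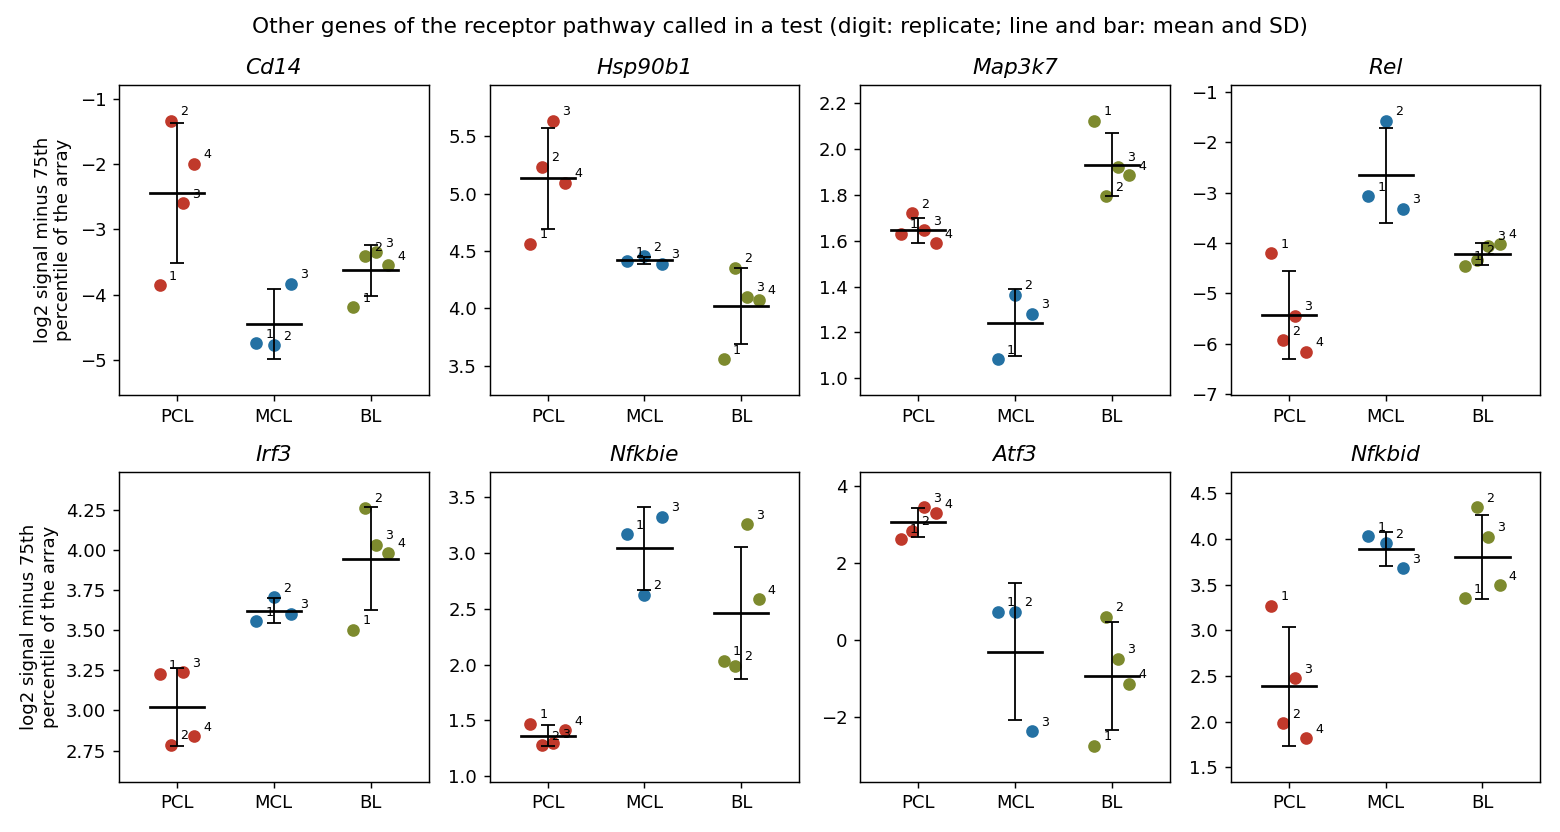
Levels of the 8 other pathway genes called in the F test or a comparison (y axis, log2 signal minus the 75th percentile of the array, own scale per gene) by lymphoma type (x axis). Points are tumours with their replicate number, and lines and bars are means and SD of 4 PCL, 3 MCL and 4 BL. PCL lies below MCL and BL for Nfkbie, Irf3 and Nfkbid and above them for Atf3 and Hsp90b1.

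The remaining groups held no called gene. Of the 4 tested endosomal proteases, which cleave the ectodomains of endosomal receptors, 4 were higher in PCL than in BL by estimate and 3 had an unadjusted p under 0.05, beside 11848 of 20181 and 17.6% over all genes. Ctsl differed by 2.19 ± 0.88 (SE) between PCL and MCL (limma adjusted p = 0.162) and Lgmn by 1.55 ± 0.59 between PCL and BL (adjusted p = 0.210). Of 4 tested adaptors besides Myd88, 0 were called, with Ticam2 at -0.70 ± 0.67 and Tirap at -0.53 ± 0.29 between PCL and BL. The mouse receptors Tlr12 and Tlr13 differed by 1.55 ± 0.80 and 0.57 ± 0.32 between PCL and BL (adjusted p = 0.351 and 0.391). Of the other receptors that use MYD88, Il18r1 and Il1rap differed by -0.999 ± 0.93 and -0.37 ± 0.28 between MCL and BL. Ticam2 was well above background on 1 PCL, 2 MCL and 4 BL arrays and Il18r1 on 1 PCL, 1 MCL and 2 BL arrays, so their differences depend on substitute values.

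For each tested gene the 3 named genes with the most similar levels over the 11 arrays were taken by Pearson correlation. For Tlr9 these were Lcn12 at 0.984, Prf1 at 0.983 and Barx2 at 0.983, of which Prf1 encodes perforin of cytotoxic lymphocytes. For Cd180 they were Kifc3 at 0.929, Cd9 at 0.909 and Zbtb20 at 0.908, and CD9 is a tetraspanin of B cells and other cells. For Tlr7 they were C9orf72 at 0.944, Prp2 and Slc16a8, and for Myd88 they were Hdhd2 at 0.924, Vac14 and Cul2. For Tlr1 Sdhaf1 came first at 0.948, followed by Tm2d3 and Tfpt, and for Tlr2 Mtmr1 at 0.934, followed by Pip4p2 and Acad8. Tlr4 had Aga at 0.858, Dtx3l and Amz2, and Tlr6 had Stra8 at 0.919, Plekha8 and Zfp672. The correlations are the highest among 13661 named genes, taken over 11 arrays, and are a description.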

How the data were processed

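RNA of 11 lymphomas, 0.2 micrograms each and of integrity number 8 to 10 per the labels, was measured on one-colour arrays. The deposited scanner files hold spot intensity on a linear scale, which the authors obtained from Agilent's software Feature Extraction, version 10.7.3.1, with probe coordinates of build mm9, per the file headers. On each array 21.5% to 29.2% of spots carry a substitute value for signal not above background, so differences of dim probes depend on it. The authors' deposited value table holds log2 values, a scale found by comparison with the scanner files. Its column medians are 7.25 to 7.26, which points to normalization between arrays without centring of genes. The sources used here do not give how it was made.

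From 43020 non-control spots, outlier spots were left out and spots of a probe averaged. Of 39383 probes with a spot on each array, 25296 were well above background on at least 3 arrays, and the brightest probe stood for each of 20181 genes. An annotation of assembly GRCm38.p6 served for names only, through the accession for 26590 probes, current symbols for 2595 and older symbols for 491, and 9753 kept the file's name. Log2 intensity minus the array's 75th percentile was tested with limma 3.58.1 in R 4.3.3 over all 11 arrays, with a mean per type, 8 residual and 2.01 prior degrees of freedom, and Benjamini-Hochberg adjustment over all genes. Genes with an adjusted p under 0.05 were called. Every adjusted p comes from this fit unless an alternative is named.

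The 10 genes, the pathway and marker lists and the tests were chosen with earlier results of these data known. Named are all 10 genes with their probes, each pathway gene called in a test and otherwise at most 2 per group with the largest difference, and the 3 genes most similar to each tested gene. Alternatives were normexp background correction with an offset of 50, the authors' table, quantile normalization, other filters, spots and probes, array weights, an intensity trend, a replicate block and leaving out each array. On data simulated for MCL against BL over 20181 genes, the test called 10, 33, 37 and 48 of 50 genes changed by 1, 2, 3 and 4 log2 units. The series' design text gives mantle cell tumours numbers up to 4 but a count of 3, the number analysed.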

Additional observations from a re-analysis of the deposited data

Results flagged for a closer look

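Tlr7 in PCL1 stood apart from the other plasma cell lymphomas. Its level with the probe that stands for the gene was -0.24 log2 units relative to the array's 75th percentile, while the nearest of the other 3 PCL was at -1.13, a gap of 0.954 of the group's whole range, above Dixon's critical value for 4 samples. Chance marks about 1 in 20 groups in this way, and 34 groups were examined. With the second Tlr7 probe PCL1 was also the highest of the 4 PCL, at -1.18 against -3.89 to -3.39.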

How the results depend on the processing

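Among the 8 tested genes 1 was called for MCL against BL, and 0 were with normexp background correction, without a filter on dim probes, with array weights or with the replicate block. Leaving out single arrays gave 0 to 1, and without MCL1 the gene called was Tlr4 and not Tlr9. The F test called 0 genes, and 1 (Tlr9, adjusted p = 0.0485) with the authors' table. For PCL against MCL the count was 0, and 1 with the authors' table (Cd180) or 2 with array weights (Tlr9 and Cd180). Of the pathway genes the F test called 7, and 0 with normexp, 3 without a filter, 15 with array weights, 0 with the replicate block and 0 to 10 without single arrays. Of the 24 most similar genes, 9 were still among the top 3 with normexp and 11 with the authors' table.

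Signs turned for differences that were not called. With array weights Tlr2 was at -0.010 for PCL minus MCL and Myd88 at 0.11 for PCL minus BL. Without single arrays, MCL minus BL ranged from -0.055 to 0.31 for Tlr1 and from -0.17 to 0.66 for Tlr6. PCL minus MCL ranged from -0.13 to 0.39 for Tlr2 and from -0.53 to 0.058 for Tlr6. PCL minus BL ranged from -0.45 to 0.070 for Tlr2, from -0.34 to 0.37 for Tlr6, from -0.021 to 0.39 for Tlr7 and from -0.17 to 0.095 for Myd88. The cause of these shifts was not tested. Over all genes the F test called 1701, and 131 with normexp, 1050 without a filter, 4763 with array weights, 341 with the replicate block and 717 to 2827 without single arrays. PCL against MCL called 1401, and 197, 697, 4424, 391 and 333 to 2463 in the same order. PCL against BL called 133, and 13, 86, 2183, 64 and 5 to 1074. MCL against BL called 1341, and 65 with normexp, 680 with the authors' table, 746 with quantile normalization, 380 with the replicate block and 687 to 1373 without single arrays. Of the calls for PCL against MCL, 30.6% were higher in PCL, and 46.2% with normexp. For PCL against BL 69.2% were higher in PCL, and 38.5% with normexp, 50.6% with the authors' table and 57.7% with quantile normalization. Normexp moved the median of all genes to 0.16 for PCL minus MCL and to -0.10 for MCL minus BL, and keeping all dim probes moved it to 0.13 for PCL minus MCL and 0.22 for PCL minus BL.

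Replicate numbers are array positions on a slide, and the main fit treated the samples as unpaired. Deviations of same-numbered arrays correlated at -0.05 to 0.17, which cannot exclude a shift by position in single genes. For Tlr6 the SE of MCL minus BL was 0.52 in the main fit and 0.30 with the replicate block. With the replicate block the Tlr9 difference of MCL and BL was 0.64 with an adjusted p of 0.139. The 3 or 4 arrays of a type limit the precision, and substitute values limit dim probes.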
